A study of Mus musculus with 6 samples.

Results

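AMPA receptors are the ligand-gated ion channels that carry most fast excitatory transmission in the cerebral cortex. Each receptor is a tetramer of pore-forming subunits encoded by *Gria1*, *Gria2*, *Gria3* and *Gria4*, and it opens when it binds glutamate. Auxiliary proteins sit beside the pore: the transmembrane AMPA receptor regulatory proteins (TARPs), the cornichons and proteins of the CKAMP family help receptors reach the synapse and set how fast they close and desensitize. The 10 genes described here are the 4 *Gria* subunits, the TARP genes *Cacng2*, *Cacng3* and *Cacng8*, the cornichon genes *Cnih2* and *Cnih3*, and *Shisa9*, which encodes CKAMP44. They were taken by name from the 56923 genes in the count tables, and all 10 were found and tested.

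RNA was sequenced from the prefrontal cortex of 3 mouse samples labelled as *Pla2g4e* knockout (KO) and 3 labelled as wild type (WT). *Pla2g4e* encodes a calcium-dependent phospholipase that transfers acyl chains to make N-acylphosphatidylethanolamines. The constitutive KO line is named C57BL/6N-A tm1Brd *Pla2g4e* tm2a, and in the tm2a allele an inserted *LacZ* gene trap is meant to divert the transcript in every tissue. The study's wild-type mice are littermates. Tissue was dissected as a frontal block. The labels give no age, sex, litter or batch, and nothing in them ties a library to an animal, so p-values measure the spread between these libraries.

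The libraries held 11792463 to 14594230 fragments assigned to genes. *Pla2g4e* itself was read at 5.95, 8.12 and 7.97 CPM (fragments per 1e6, scaled between libraries by TMM) in KO replicates 1 to 3 and at 7.84, 11.3 and 13.2 CPM in WT replicates 1 to 3. The first of these WT libraries fell between the KO values, and the fitted difference was -0.55 on the log2 scale (limma-voom, adjusted p = 0.635). Counts cover all exons of the gene, so transcript left over from the trapped allele cannot be told apart from intact transcript, and every direction given below rests on the labels. Replicate 1 of KO and the library labelled WT replicate 1 carried *Xist* at 1387 and 969 CPM and Y-linked genes at 0 and 0.157 CPM in sum, whereas the other 4 libraries carried *Xist* at up to 0.246 CPM and Y-linked genes at 182 to 190 CPM. In the comparison over 19084 genes 0 passed an adjusted p of 0.05 with limma-voom, which is 0% of the genes tested. At an unadjusted p under 0.05 there were 1492 genes, edgeR also called 0 after adjustment and DESeq2 called 1. Markers of cortical excitatory neurons were present, with *Slc17a7* at 1161 to 1628 CPM and *Tbr1* at 121 to 184 CPM. Markers of the olfactory bulb, which lies in front of the cortex, summed to 230 CPM in KO replicate 1 against 14.1 to 58.7 CPM in the other 5 libraries, and of these 6 markers *Eomes* was at 0 in WT replicate 2.

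The subunits share a pore whose loop lines the ion path, and a single codon in that loop sets calcium permeability. That position, the Q/R site, is the one at which *Gria2* transcripts are edited by the enzyme of *Adarb1* so that the receptor becomes nearly impermeable to calcium. The 63 coding bases of the pore loop are shown for the 4 subunits because they hold this position, with the Q/R-site codon in capitals. They were read from GENCODE M21 transcripts (GRCm38) and each stretch is spliced from neighbouring exons.
Gria1, codon 600, exons 11 and 12 of Gria1-202, plus strand within chr11:57243064-57283516: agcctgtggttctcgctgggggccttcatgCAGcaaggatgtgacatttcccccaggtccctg
Gria2, codon 607, exons 11 and 12 of Gria2-201, minus strand within chr3:80702650-80706943: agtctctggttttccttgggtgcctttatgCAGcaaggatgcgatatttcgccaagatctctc
Gria3, codon 612, exons 11 and 12 of Gria3-201, plus strand within chrX:41610235-41620803: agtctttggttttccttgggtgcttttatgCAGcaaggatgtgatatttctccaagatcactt
Gria4, codon 608, exons 12 and 13 of Gria4-202, minus strand within chr9:4462098-4464169: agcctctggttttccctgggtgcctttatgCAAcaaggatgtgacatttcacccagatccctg
All 4 genomic codons encode glutamine (CAG in 3 of them and CAA in *Gria4*), so the edited form of *Gria2* is not visible in the reference sequence, and gene counts do not record editing. Over the 63 bases the closest pair was *Gria2* and *Gria3* with 6 differences, and the widest gaps were 14 differences, between *Gria1* and each of *Gria2* and *Gria3*. Over the whole coding sequence the 6 pairs of subunits shared 68.3% to 72.6% of aligned bases.

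The TARPs end in a short motif that binds the PDZ domains of postsynaptic scaffolds such as PSD-95, the product of *Dlg4*. The last 30 coding bases before the stop codon are shown for the 3 TARPs to place this shared end beside their different readouts, with the last 4 codons in capitals. They come from the same transcripts (GRCm38).
Cacng2, minus strand, chr15:77995152-77995181: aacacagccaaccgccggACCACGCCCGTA
Cacng3, plus strand, chr7:122768814-122768843: aatccggccaacagacgtACCACGCCTGTC
Cacng8, plus strand, chr7:3415573-3415602: aacacgctcaacaggaaaACCACGCCCGTG
The 30-base ends differed at 8 to 10 positions between pairs, and the coding sequences were identical at 67.1% to 72.3% of aligned bases. *Cnih2* and *Cnih3* were the closest pair, at 77.1%. Long identical stretches were rare: at most 0.159% of a member's 50-base words occurred in another member, and the highest share found in any other gene was 5.86%, for *Cacng2*.

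Per kilobase of exon the members spanned a wide range, from 112.5 ± 8.35 FPKM (fragments per kilobase and per 1e6; SD, n = 6 libraries) for *Cnih2* to 15.5 ± 1.68 FPKM for *Cacng2*. *Gria1* came second at 70.7 ± 4.57 FPKM and *Gria2* next at 57.9 ± 3.93 FPKM, and these ranges did not touch. *Cacng3*, at 41.8 ± 5.38 FPKM, overlapped with *Gria3* at 37.7 ± 2.38 FPKM. The lower members were *Cacng8* at 25.7 ± 1.29, *Cnih3* at 23.6 ± 2.34, *Gria4* at 22.0 ± 1.11 and *Shisa9* at 15.9 ± 1.45 FPKM. Within this lower part, *Cacng8* and *Cnih3*, *Cnih3* and *Gria4*, and *Shisa9* and *Cacng2* overlapped and cannot be ranked. *Cacng3* stood above *Gria3* in 5 of 6 libraries, with KO replicate 2 the exception. The order also depends on the length used: with the longest protein-coding transcript in place of all exon bases, a choice made after seeing the data, *Gria2* stood at 86.8 FPKM above *Gria1* at 77.0, *Gria3* moved up to 71.6 and 4 of the 10 genes kept their rank.

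**Figure D1:**
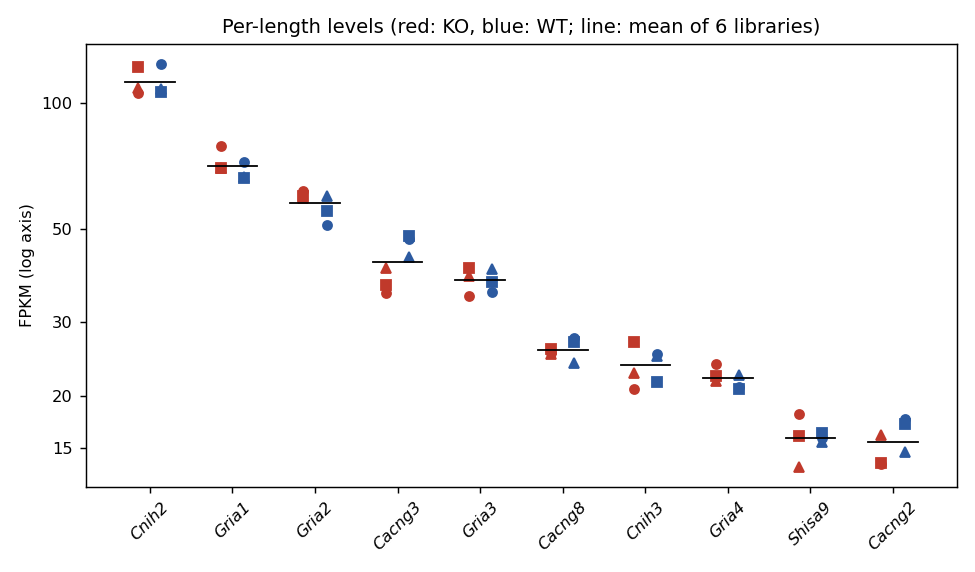
Per-length level of the 10 AMPA receptor genes in FPKM on a log axis, ordered by the mean of 6 libraries (black line), with KO libraries in red on the left and WT libraries in blue on the right (circle, square and triangle for replicates 1, 2 and 3). *Cnih2* is the highest at 112.5 FPKM and *Cacng2* the lowest at 15.5, and *Cacng3* is the gene whose red and blue points stand apart.

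None of the 10 members passed the adjusted threshold between KO and WT. By estimate they fell on both sides of 0: all 4 *Gria* subunits had a log2 fold change above 0 (3 of 4 when KO replicate 2, KO replicate 3 or the library labelled WT replicate 1 was left out) and all 6 auxiliary genes had one below 0 (2 of the 6 with pan-neuronal scaling), with a median over the 10 of -0.01 beside 0.01 over all genes tested. *Cacng3* was the 1 member with an unadjusted p under 0.05 and the 1 member whose KO and WT libraries did not overlap, in both cases lower in KO. Over all genes 3.44% had an unadjusted p under 0.05 and were lower in KO, 4.38% were higher, 6.29% did not overlap and were lower, and 6.72% did not overlap and were higher, so 1 of 10 members is near these shares. In bulk tissue, fewer cells that express a gene and less of its RNA per cell cannot be told apart.

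**Figure D2:**
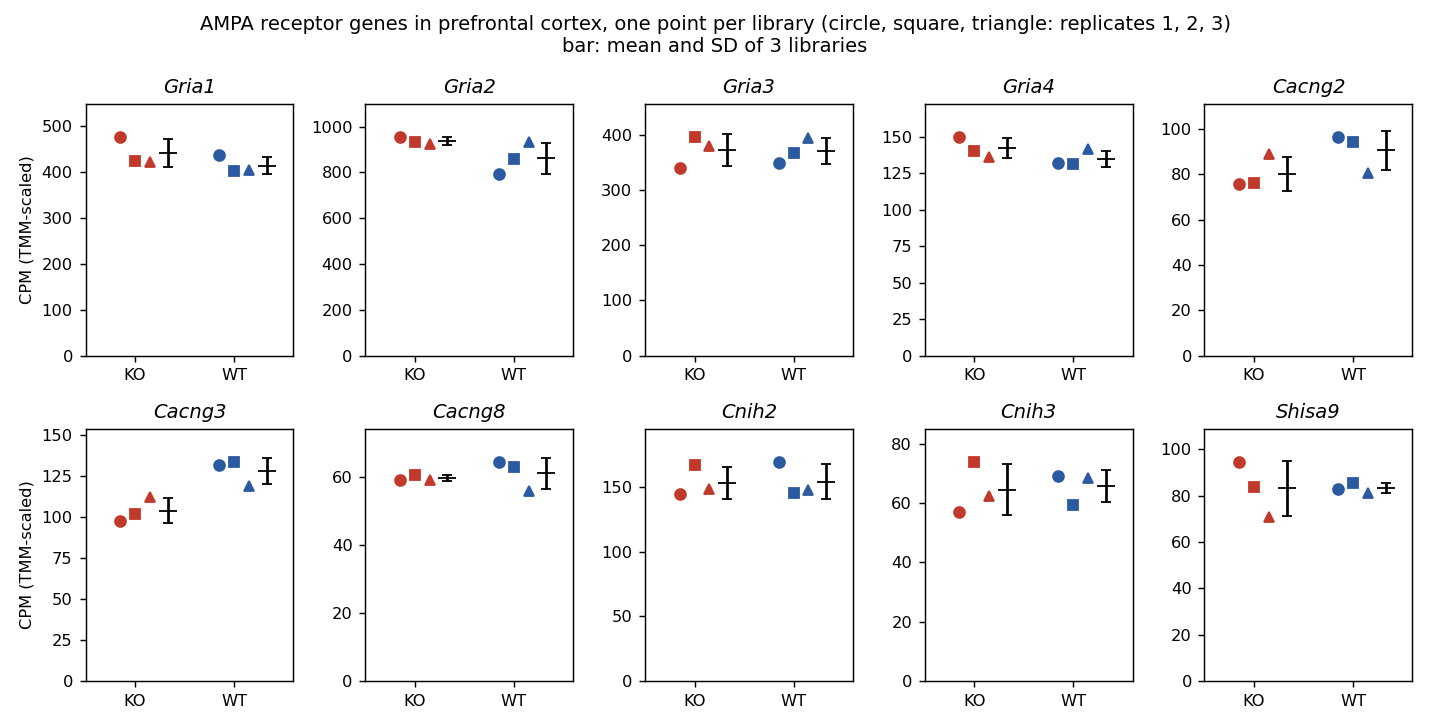
Level of each AMPA receptor gene in CPM on axes that start at 0, with 1 point per library (circle, square and triangle for replicates 1, 2 and 3; red for KO, blue for WT) and the mean with SD of 3 libraries in black. *Cacng3* is the only panel in which the KO points (97.8 to 112 CPM) and the WT points (119 to 134 CPM) do not overlap.

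Among the pore subunits *Gria2*, which sets the calcium permeability of the receptor (chr3:80588757-80710142, minus strand, GRCm39 here and for the other genes), was the most abundant by count. It was read at 957, 935 and 922 CPM in KO replicates 1 to 3 and at 795, 858 and 932 CPM in WT replicates 1 to 3. Only WT replicate 3 reached into the KO range, and the KO libraries were closer to each other (938 ± 17.6 CPM, SD, n = 3) than the WT libraries (862 ± 68.4). The fitted log2 fold change was 0.13 (SE 0.066, limma-voom adjusted p = 0.647), with a 95% interval from -0.02 to 0.27. It was 0.07 without the library labelled WT replicate 1 and 0.18 without WT replicate 3.

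*Gria1* (chr11:56902213-57221070, plus strand) encodes the subunit whose carboxyl tail is phosphorylated during synaptic potentiation. It stood at 477, 423 and 422 CPM in KO, against 436, 401 and 403 CPM in WT, in replicate order. The groups overlapped, and KO replicate 1 was the highest library. KO over WT was fitted at a log2 fold change of 0.09 (SE 0.068, 95% interval -0.06 to 0.24, limma-voom adjusted p = 0.723), and it was 0.03 without KO replicate 1. Across the 6 libraries the *Gria1* level went with the summed olfactory bulb markers (Pearson r = 0.95, n = 6 libraries that share their scaling, a description). With the summed interneuron markers r was 0.89. The part of bulb tissue or of interneurons in the *Gria1* value was not tested beyond leaving out KO replicate 1.

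*Gria3*, an X-linked subunit gene (chrX:40489731-40767478, plus strand) that joins *Gria2* in many cortical receptors, was read at 341, 397 and 380 CPM in KO, against 349, 368 and 395 CPM in WT. The groups covered almost the same range. The lowest library of each group (KO replicate 1, and the one labelled WT replicate 1) was the one with *Xist* reads, and whether that split has a part in the *Gria3* level was not tested. The estimate in log2 was 0.01 (SE 0.073, 95% interval -0.15 to 0.17, limma-voom adjusted p = 0.986). Within the 4 libraries with Y-linked reads it was 0.03.

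*Gria4* (chr9:4417896-4796234, minus strand), the subunit with the lowest count here and one known for fast gating in interneurons, stood at 150, 140 and 136 CPM in KO, against 132, 131 and 141 CPM in WT. WT replicate 3 lay inside the KO range. The fitted log2 fold change was 0.08 (SE 0.067, 95% interval -0.07 to 0.22, limma-voom adjusted p = 0.757). It was 0.038 without KO replicate 1 and 0.023 within the libraries with Y-linked reads. The correlation of *Gria4* with the olfactory bulb sum was 0.80 (n = 6, a description), and the part of that tissue in its value was not tested beyond these values. With TMM scaling the intervals of the 4 subunits together ran from 90.0% to 120% of WT. With pan-neuronal scaling the log2 fold changes were 0.22 for *Gria1*, 0.25 for *Gria2*, 0.13 for *Gria3* and 0.20 for *Gria4*, and the adjusted p of limma-voom was 0.390 for *Gria2*, the lowest of them.

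Because a share within a library needs no scaling between libraries, the subunits were also set against each other. By per-length level *Gria1* made up 37.6 ± 1.79% of the *Gria* total in KO and 37.5 ± 2.48% in WT (SD, n = 3). *Gria2* made up 31.2 ± 0.187% and 30.3 ± 1.65%, *Gria3* 19.5 ± 1.89% and 20.5 ± 0.766%, and *Gria4* 11.6 ± 0.290% and 11.7 ± 0.144%. All 4 shares overlapped between groups, and KO minus WT lay between -0.995 and 0.874 percentage points, in each case less than the larger SD of both groups. With the longest transcript as length the share of *Gria3* was higher, 26.8% in KO and 28.1% in WT, and the groups still overlapped.

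The member with the largest difference was *Cacng3*, which encodes TARP gamma-3 and lies at chr7:122269715-122368616 on the plus strand (GRCm39). It was read at 97.8, 102 and 112 CPM in KO replicates 1 to 3 and at 132, 134 and 119 CPM in WT replicates 1 to 3. Every KO library was below every WT library, with the closest pair, KO replicate 3 and WT replicate 3, at 112 and 119 CPM. The mean was 104 ± 7.46 CPM in KO and 128 ± 7.94 CPM in WT (SD, n = 3), 81.1% of WT. In the fit its log2 fold change was -0.30 (SE 0.075, 95% interval -0.47 to -0.14), with an unadjusted p of 0.00165 and an adjusted p of 0.635 in limma-voom.

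The *Cacng3* estimate was below 0, with an unadjusted p under 0.05, in 17 of 17 alternative settings, where it ranged from -0.36 to -0.18, and the adjusted p ranged from 0.196 to 0.999. The smallest difference came from scaling libraries by 10 pan-neuronal genes, which moves the median of all genes from 0.01 to 0.13 and every estimate with it. The estimate was -0.24 within the 4 libraries with Y-linked reads. Between 1218 and 1682 fragments per library lie behind these values, no 50-base word of *Cacng3* occurred in another gene, and no other gene shared its exon bases on the same strand.

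*Cacng2* (chr15:77875948-78004228, minus strand) encodes TARP gamma-2 (stargazin), the founding TARP, which is known for holding AMPA receptors at synapses. It stood at 75.6, 76.1 and 88.9 CPM in KO, against 96.7, 94.5 and 80.6 CPM in WT. KO replicate 3 and WT replicate 3 crossed over, and the other 4 libraries kept apart. KO over WT was fitted at a log2 fold change of -0.18 (SE 0.090, 95% interval -0.37 to 0.02, limma-voom adjusted p = 0.639). It was -0.25 without KO replicate 3, -0.26 without WT replicate 3 and -0.05 with pan-neuronal scaling.

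*Cacng8* (chr7:3439199-3464164, plus strand), for the hippocampus- and cortex-rich TARP gamma-8, had an estimate closer to 0. Its libraries lay at 59.2, 60.6 and 59.0 CPM in KO, against 64.4, 62.9 and 56.0 CPM in WT. The KO libraries all fell inside the WT range. The fitted log2 fold change was -0.03 (SE 0.076, 95% interval -0.20 to 0.13, limma-voom adjusted p = 0.916), and its sign turned in 3 of 17 alternatives.

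Ratios within a library again need no scaling between libraries. They were chosen after the values were seen and are a description. The ratio of *Cacng3* to *Cacng8* counts was 1.65, 1.68 and 1.90 in KO, below the 2.05, 2.12 and 2.13 of WT. *Cacng3* to *Gria2* was 0.102, 0.109 and 0.122 in KO, again below WT, at 0.166, 0.156 and 0.128, and the mean log2 ratio was lower by 0.43 in KO than in WT. *Cacng3* to *Cacng2* gave 1.29, 1.34 and 1.26 in KO, close below the 1.36, 1.42 and 1.48 of WT. *Cacng2* to *Cacng8* overlapped between the groups.

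The cornichons *Cnih2* (chr19:5142896-5148549, minus strand) and *Cnih3* (chr1:181180193-181288206, plus strand) carry AMPA receptors out of the endoplasmic reticulum and slow their closing. *Cnih2* was read at 145, 167 and 149 CPM in KO, against 170, 145 and 148 CPM in WT, and *Cnih3* at 57.1, 73.9 and 62.3 CPM in KO, against 69.0, 59.4 and 68.5 CPM in WT. In both genes replicate 2 of KO and the library labelled WT replicate 1 were the highest of the 6, and the groups overlapped throughout. The fitted log2 fold changes were -0.01 (SE 0.080, 95% interval -0.18 to 0.17, limma-voom adjusted p = 0.982) and -0.04 (SE 0.099, 95% interval -0.25 to 0.18, limma-voom adjusted p = 0.935).

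*Shisa9* (chr16:11801977-12088766, plus strand), whose product CKAMP44 deepens and prolongs receptor desensitization, stood at 94.6, 83.9 and 70.9 CPM in KO, against 82.9, 85.4 and 81.2 CPM in WT. The KO libraries were spread widely (83.1 ± 11.8 CPM, SD, n = 3) and enclosed the WT libraries (83.2 ± 2.12). Its fitted log2 fold change was -0.01 (SE 0.094, 95% interval -0.21 to 0.20, limma-voom adjusted p = 0.987). The signs of *Cacng8*, *Cnih2*, *Cnih3* and *Shisa9* turned in 3 to 7 of 17 alternatives, so that of the 6 auxiliary genes below 0 only *Cacng2* and *Cacng3* kept their sign in all 17.

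**Figure D3:**
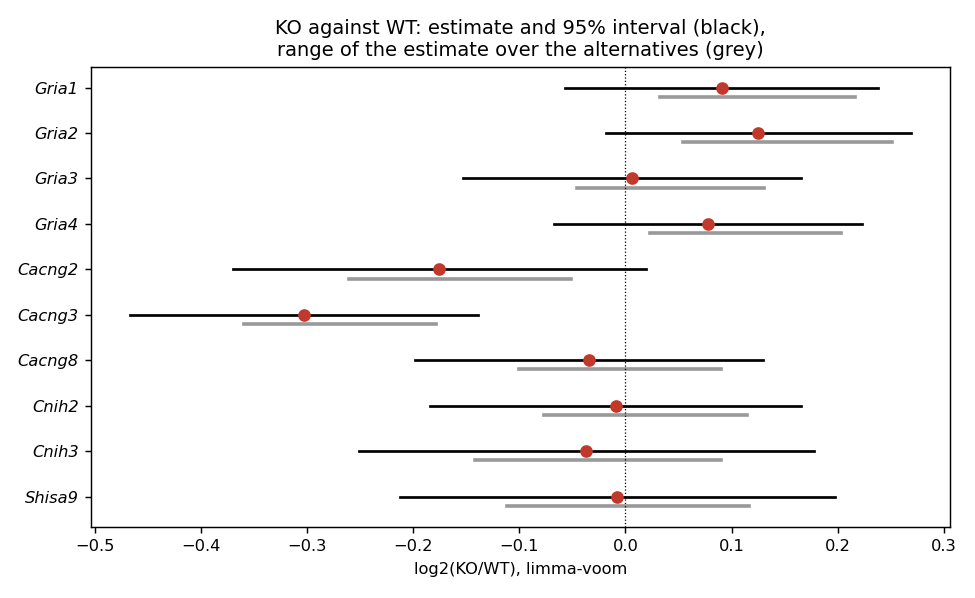
Estimated log2 fold change of KO over WT for each AMPA receptor gene (red point) with its 95% interval from limma-voom (black) and the range of the estimate over 17 alternative settings (grey). *Cacng3* is the only gene whose interval, from -0.47 to -0.14, lies off 0, and for *Gria3*, *Cacng8*, *Cnih2*, *Cnih3* and *Shisa9* the grey range crosses 0.

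Across the 6 libraries the members did not vary as one group. Of the 45 pairs 20 had a Pearson correlation above 0 (log2 CPM, n = 6 libraries of both groups that share scaling and composition, a description). The 3 TARPs went together in all 3 pairs, from 0.49 to 0.90, with *Cacng2* and *Cacng3* the closest. Between subunits and TARPs the correlation was below 0 in 11 of 12 pairs, with a median of -0.62. The lowest value, -0.90, was between *Gria4* and *Cacng2*. Some were weak, such as *Gria3* with *Cacng3* at -0.06 and with *Cacng2* at -0.25. *Cnih2* and *Cnih3* (0.81) and *Gria2* and *Gria4* (0.80) went together, whereas *Gria1* and *Gria3* did not (-0.73).

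Markers of the cell types in the tissue were read beside the TARPs. All 8 excitatory neuron markers had an estimate below 0 in KO (6 of 8 with pan-neuronal scaling or without KO replicate 1), with a median of -0.21, and among them *Neurod6*, at -0.42, and *Nrgn*, at -0.22, had an unadjusted p under 0.05 in limma-voom. Their sum ran from 6208 to 7435 CPM in KO and from 6961 to 7442 CPM in WT. *Camk2a* alone, with an estimate of -0.00076, held 3582 to 4338 CPM of it in KO and 3545 to 4056 CPM in WT. Of 10 pan-neuronal markers 9 had an estimate below 0, with a median of -0.14 and sums of 8073 to 8631 CPM in KO and 8612 to 9743 CPM in WT. The correlation with the pan-neuronal sum was 0.85 for *Cacng2*, 0.91 for *Cacng3* and 0.65 for *Cacng8* (n = 6 libraries, a description). With the excitatory sum it was 0.78, 0.76 and 0.15, with the interneuron sum -0.20, -0.29 and 0.10, with the striatal sum -0.85, -0.70 and -0.78, with the oligodendrocyte sum -0.67, -0.54 and -0.92, and with the olfactory bulb sum -0.60, -0.73 and -0.15. For *Gria1* to *Gria4* the correlation with the pan-neuronal sum was -0.64, -0.78, -0.0047 and -0.92. All 10 striatal markers had an estimate above 0, with sums of 349 to 459 CPM in KO and 262 to 435 CPM in WT, and so had 7 of 8 oligodendrocyte markers (2251 to 2617 CPM in KO, 1757 to 2901 in WT). With KO replicate 2 or the library labelled WT replicate 1 left out, 7 of the 10 striatal estimates were above 0. All 9 astrocyte markers had an estimate above 0, with a median of 0.08 and sums of 4822 to 5349 CPM in KO and 4558 to 5310 CPM in WT, but 5 of 9 without KO replicate 1 and 4 of 9 without WT replicate 2. Of 8 interneuron markers 5 had an estimate below 0 (7 without KO replicate 1 and 4 without the library labelled WT replicate 1), among them *Sst* at -0.50 and *Pvalb* at -0.23 with an unadjusted p under 0.05 in limma-voom, and the sums ran from 826 to 1200 CPM in KO and from 812 to 1049 CPM in WT. The other 3 were *Gad1* at 0.33, *Gad2* at 0.10 and *Slc32a1* at 0.05. *Gad1* alone made up 581 of the 1200 CPM of the interneuron sum in KO replicate 1. No marker in these 6 lists was at 0, and the part of cell composition in the TARP values was not tested.

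**Figure D4:**
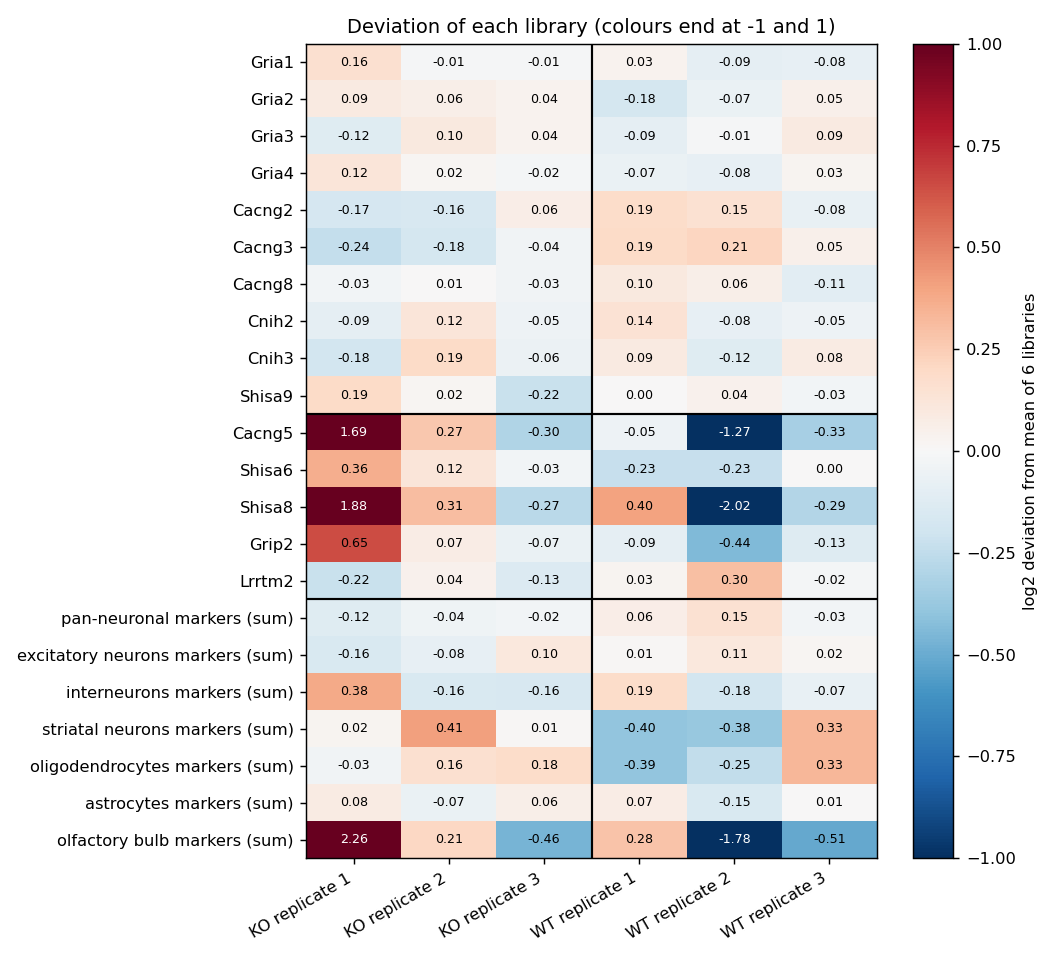
Log2 deviation of each library from the mean of 6 libraries for the 10 AMPA receptor genes (top), 5 further genes of the pathway (middle) and the summed markers of 7 cell types or tissues (bottom), with red above and blue below the mean. *Cacng2* and *Cacng3* share their pattern with the pan-neuronal and excitatory sums, but not with the interneuron and striatal sums. Of the interneuron sum in KO replicate 1, 1200 CPM, *Gad1* alone makes up 581 CPM. Of the 8 interneuron markers 5 had an estimate below 0. *Cacng5*, *Shisa8* and *Grip2* share their pattern with the olfactory bulb sum, which is highest in KO replicate 1 at 230 CPM.

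Beyond these 10 members, 42 other genes of the pathway were listed by known role, and all 42 were tested. None passed the adjusted threshold with limma-voom, edgeR or DESeq2. When a Y-linked covariate was added to the limma-voom fit 1, *Cacng5*, passed, beside 24 of all 19084 genes (23 of them higher in KO). By estimate 29 of the 42 lay below 0 and 13 above, with a median of -0.04, whereas with pan-neuronal scaling 12 lay below and 30 above. At an unadjusted p under 0.05 there was 1 lower gene, *Lrrtm2*, and there were 3 higher genes, *Cacng5*, *Shisa6* and *Grip2*, beside 3.44% and 4.38% of all genes. Without KO replicate 1 this count was 0, and without WT replicate 2 it was also 0. The groups did not overlap in 4 genes, lower in KO for *Cnih1* and *Ppp3ca* and higher for *Prrt2* and *Grip2*, beside 6.29% and 6.72% of all genes.

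The 10 other auxiliary genes held the largest estimates of the pathway. Of these, 7 lay above 0 and 3 below (9 and 1 with pan-neuronal scaling), with a median of 0.15. All 6 auxiliary members lay below 0 in the main fit, but only 2 with pan-neuronal scaling. Only 3 of the 6 did so within the libraries with Y-linked reads, or without the library labelled WT replicate 1. *Cacng5* encodes TARP gamma-5, and it was read at 46.0, 17.2 and 11.6 CPM in KO, against 13.8, 5.89 and 11.3 CPM in WT. KO replicate 1 stood far above every other library. In the fit its log2 fold change was 1.14 (SE 0.47, limma-voom adjusted p = 0.635), and 0.52 without KO replicate 1. With the Y-linked covariate it was 1.27 (limma-voom adjusted p = 0.0295), and its adjusted p ran from 0.0885 to 0.999 in the other alternatives. *Shisa8*, of the CKAMP family, had the same shape, with 18.3, 6.20 and 4.14 CPM in KO against 6.58, 1.23 and 4.08 CPM in WT, and its estimate was 1.31 (limma-voom adjusted p = 0.637). It was named after its values were seen. *Shisa6*, another gene of that family, was at 19.9, 16.8 and 15.2 CPM in KO, against 13.2, 13.3 and 15.5 CPM in WT, with an estimate of 0.31 (limma-voom adjusted p = 0.635), and 0.19 without KO replicate 1.

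The levels of *Cacng5*, *Shisa8* and *Grip2* followed the olfactory bulb markers across libraries, with correlations of 0.99, 0.98 and 0.97. In the same order they were 0.80, 0.80 and 0.77 with the interneuron sum. With the pan-neuronal sum they were -0.86, -0.85 and -0.87, and with the excitatory sum -0.91, -0.85 and -0.88. *Grip2*, a scaffold that binds the tail of *Gria2* subunits, was at 76.6, 51.2 and 46.5 CPM in KO, against 45.8, 35.8 and 44.4 CPM in WT. Its estimate was 0.45 (SE 0.16, limma-voom adjusted p = 0.635), and 0.22 without KO replicate 1. All 6 olfactory bulb markers had an estimate above 0, with a median of 1.40 and sums of 35.0 to 230 CPM in KO and 14.1 to 58.7 CPM in WT. Their part in these results was not tested beyond these values.

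The 2 genes of each role with the highest level per kilobase of exon (FPKM) had estimates from -0.15 to 0.09. Among the auxiliary genes *Cacng7* (TARP gamma-7) had an estimate of 0.09 and *Prrt1*, a proline-rich membrane protein of the receptor complex, one of -0.05. All 7 assembly and export genes had an estimate below 0 (5 with library totals and 2 with pan-neuronal scaling), with *Frrs1l*, which acts in receptor assembly, at -0.15 and *Abhd12* at -0.11. Of the 12 scaffold and trafficking genes 8 had an estimate below 0 and 4 above (3 and 9 with pan-neuronal scaling). Among them *Dlg4*, for PSD-95, was at -0.06 and *Nsf*, an ATPase of vesicle fusion that binds *Gria2*, at -0.13. All 7 genes of extracellular clustering also had an estimate below 0 (5 with pan-neuronal scaling), with a median of -0.14. *Nptxr*, a neuronal pentraxin receptor, was at -0.11 and *Olfm1* at -0.13. These small estimates moved with single libraries. Without KO replicate 1 *Frrs1l* was at -0.069, *Nsf* at -0.057, *Olfm1* at -0.061, *Abhd12* at -0.069, *Prrt1* at -0.077 and *Cacng7* at -0.027. Without the library labelled WT replicate 1 *Dlg4* was at -0.031, *Nptxr* at -0.072 and *Prrt1* at -0.015.

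*Lrrtm2*, a postsynaptic adhesion protein that keeps AMPA receptors at the synapse, was at 73.2, 88.0 and 77.9 CPM in KO, against 87.4, 105.5 and 84.5 CPM in WT. KO replicate 2 lay inside the WT range. The estimate was -0.21 (SE 0.096, limma-voom adjusted p = 0.635), and -0.12 without WT replicate 2. Of the 6 modifying enzymes 4 had an estimate below 0 and 2 above (1 and 5 with pan-neuronal scaling). Among them *Camk2a*, the calmodulin-dependent kinase of potentiation, was at -0.00076 and *Adarb1*, which edits the codon shown for *Gria2*, at 0.08.

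**Figure D5:**
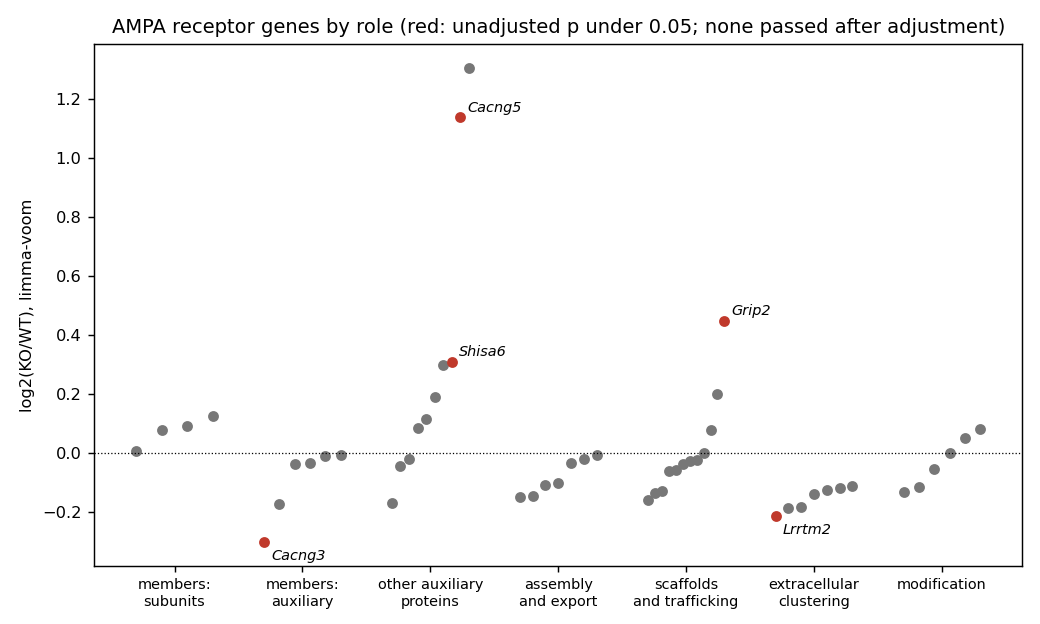
Estimated log2 fold change of KO over WT from limma-voom for the AMPA receptor subunits, the auxiliary members and 42 further genes of the pathway by role, with 1 point per gene ordered by estimate within a role (red for an unadjusted p under 0.05, grey for the rest). All 4 subunits lie above 0 with all libraries in, and so do 7 of the 10 other auxiliary genes. The 7 assembly and export genes and the 7 extracellular clustering genes lie below 0 (under pan-neuronal scaling 2 and 5 of them). The highest grey point is *Shisa8* at 1.31.

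The other ionotropic glutamate receptors were read beside these genes. Of the 7 NMDA receptor subunit genes 6 were tested, with 5 estimates above 0, 1 below and a median of 0.02. Of the 5 kainate receptor genes 3 lay above 0 and 2 below, with a median of 0.05. None passed the adjusted threshold. *Grin2c*, for an NMDA subunit, was read at 76.7, 65.2 and 63.8 CPM in KO, against 54.9, 48.0 and 54.6 CPM in WT, with no overlap. Its estimate was 0.38 (SE 0.090, limma-voom unadjusted p = 0.00108 and adjusted p = 0.635), and 0.30 without KO replicate 1. The unadjusted p of *Grin2c* was under 0.05 in 17 of 17 alternatives. *Grik2*, for a kainate subunit, was at 94.7, 85.3 and 86.5 CPM in KO, against 73.8, 80.0 and 84.2 CPM in WT, also with no overlap. Its estimate was 0.17 (limma-voom adjusted p = 0.636). The groups did not overlap, higher in KO, in 1 of the 6 NMDA and 2 of the 5 kainate genes tested, beside 6.72% of all genes. Whether any member differed from these families was not tested.

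Among 10819 genes whose log2 CPM averaged 3 or more, the genes whose levels over the 6 libraries were most like those of each subunit were *Fads2*, *Rgcc* and *Pcdh20* for *Gria1* (r = 0.997 to 0.989), *Zfp408*, *B930095G15Rik* and *Celf2* for *Gria2* (0.996 to 0.992), *Nab2*, *Mcam* and *Man2a1* for *Gria3* (0.991 to 0.988), and *Cyfip1*, *Mdk* and *Abhd11* for *Gria4* (0.990 to 0.986). No gene was named for more than 1 subunit. With 6 points a gene, these values describe these libraries only.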

How the data were processed

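Polyadenylated RNA was sequenced as strand-specific libraries. The deposited values are raw counts of fragments per gene, 1 table per library. According to the submitters' notes and the file headers, the authors checked reads with FastQC 0.11.8, aligned them with STAR 2.7.9a and counted exon fragments with featureCounts 1.6.0 (strand option 2, GENCODE M31, GRCm39), whereas the study's methods name an earlier build. Fragments that map to several places or genes were not counted. Symbols were matched by identifier for 52073 of 56923 genes.

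Genes with at least 6 fragments in at least 1 library (19084 of 29943 with any) were tested with TMM scaling in edgeR 4.0.16 and voom in limma 3.58.1 (R 4.3.3), two-sided, with Benjamini-Hochberg adjustment over all of them. CPM were TMM-scaled, and FPKM used the exon length in the tables. Scripts were tested on simulated data. Intervals cover the spread between libraries, and fragments carry no molecular identifiers. Alternatives were edgeR's quasi-likelihood test, DESeq2 1.42.0, other scalings and filters, quality weights, a replicate block, the Y-linked split and leaving out each library. Another gene length was added after seeing the data. The members and all lists were chosen with earlier results of these data known. Named were all members, other pathway genes with an unadjusted p under 0.05 and the 2 most abundant per role by FPKM. Also named were the 3 genes most like each subunit, and NMDA and kainate genes with an unadjusted p under 0.05. *Shisa8*, *Cnih1*, *Ppp3ca*, *Prrt2* and *Adarb1* and the single markers were named outside this rule, after their values were seen. Some genes that these choices cover are not reported here. Sequences are from GENCODE M21 (GRCm38). Proteins were not analysed here.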

Additional observations from a re-analysis of the deposited data

How the results depend on the processing

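No member passed the adjusted threshold under any of the 17 alternatives, and *Gria1*, *Gria2*, *Gria4*, *Cacng2* and *Cacng3* kept their direction in all of them. The cause of the shifts below was not tested. Over all genes, DESeq2 called 1 gene after adjustment, the Y-linked covariate 24 and the 4 libraries with Y-linked reads 3, and leaving out 1 library gave 0 to 1. At an unadjusted p under 0.05 there were 902 genes with DESeq2, 2311 with pan-neuronal scaling, 696 within the Y-linked libraries and 782 (without WT replicate 2) to 2239 (without WT replicate 3) with 1 library left out, and 830 without KO replicate 1. Members at an unadjusted p under 0.05 numbered 2 with library totals, 4 with pan-neuronal scaling, 2 with the 1-fragment filter and 1 to 3 with 1 library left out (3 without WT replicate 3, 2 without KO replicate 3). Of the other pathway genes *Cacng5* passed with the Y-linked covariate (1 gene, log2 fold change 1.27, limma-voom adjusted p = 0.0295, against 0.0885 to 0.999 in its other alternatives). The libraries that this covariate sets apart also had the highest olfactory bulb sums. The unadjusted count of the other pathway genes was 2 with DESeq2, 10 with pan-neuronal scaling, 9 with the 1-fragment filter, 8 with the Y-linked covariate and 0 to 11 with 1 library left out (0 without KO replicate 1 or WT replicate 2, 8 without KO replicate 3, 11 without WT replicate 3).

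Log2 fold changes turned in sign as follows. With pan-neuronal scaling *Cacng8* was at 0.090, *Cnih2* at 0.11, *Cnih3* at 0.0904, *Shisa9* at 0.12, *Prrt1* at 0.080, *Abhd12* at 0.013, *Dlg4* at 0.067, *Nptxr* at 0.0125 and *Camk2a* at 0.12. Within the Y-linked libraries *Cacng8* was at 0.010, *Cnih2* at 0.10, *Cnih3* at 0.085 and *Cacng7* at -0.041. With library totals *Cnih2* was at 0.016, *Shisa9* at 0.018 and *Camk2a* at 0.025. With quality weights *Cnih2* was at 0.012, *Cnih3* at 0.0002 and *Camk2a* at 0.011. With edgeR *Shisa9* was at 0.0009 and *Camk2a* at 0.0014, and with the 1-fragment filter *Camk2a* was at 0.0039. With 1 library left out *Gria3* ran from -0.045 to 0.070, *Cacng8* from -0.10 to 0.0056, *Cnih2* from -0.077 to 0.061, *Cnih3* from -0.14 to 0.049, *Shisa9* from -0.11 to 0.10, *Cacng7* from -0.027 to 0.14 and *Camk2a* from -0.083 to 0.050. The order by per-length level kept 4 of 10 ranks with the longest transcript length.

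The labels do not say whether the replicate numbers pair the samples. Same-numbered libraries correlated at 0.267, 0.0591 and -0.0199 in their deviations from the group means, beside -0.198 to 0.167 for unlike numbers. These values do not settle whether samples were paired. With the replicate block 0 genes passed after adjustment and 1693 had an unadjusted p under 0.05. The lowest adjusted p of limma-voom was 0.0639 with the block and 0.635 without it. No adjusted call changed, and the other pathway genes at an unadjusted p under 0.05 numbered 6 with the block. Each member had at least 713 fragments in every library, and the small number of libraries, 3 a group, limits the precision.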
